A study of Drosophila melanogaster with 3 samples.

Results

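The genes of the nuclear pore complex and of the core machinery that carries mRNA out of the nucleus were examined for promoter binding by CG14710-GFP in fly embryos. They were the protein-coding genes whose symbol starts with Nup and a digit, together with Rae1, mbo, Gp210, Ndc1, Sec13, Elys, sbr, Nxt1, emb, Ran, Rcc1, RanGAP and the gene listed as Mtor or Tpr, which the annotation calls Mgtor. The rule gave 34 of the 13944 protein-coding genes on the 7 chromosome arms annotated by RefSeq, with 11 on 2R, 10 on 3R, 7 on X, 5 on 2L and 1 on 3L. The rule used names only and no measured value, but the genes were chosen with earlier results of these data known.

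Chromatin immunoprecipitation followed by sequencing (ChIP-seq) recorded where the protein of CG14710, a zinc finger gene of the ZAD family, sat on the genome. Chromatin of 200 to 800 bp fragments came from whole Drosophila melanogaster embryos of both sexes, aged 0 to 14 hours. All embryos belonged to 1 transgenic line in which CG14710 was fused at its C-terminus to green fluorescent protein (GFP), and the precipitating antibody recognised GFP. There were 3 biological replicates of this 1 group, with no second genotype, stage or treatment, and no untagged embryos were analysed here. Neither the promoter driving the fusion nor the state of the endogenous gene is given in the sources used here. Whole embryos mix many cell types, so a peak cannot be placed in any 1 of them.

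A peak list was used for each replicate, with 30000 peaks in each, beside a pooled list of 30000 peaks and a list of 9194 peaks that passed the authors' test of reproducibility between replicates, the irreproducible discovery rate (IDR). Every peak has a summit, its highest point, and a signal value on a scale that the files do not state, so signals were compared only within a list. Across replicates a peak was placed by its percentile, the share of that list's peaks with the same or a lower signal. A gene was called bound when an IDR summit lay within 500 bp of any of its transcription start sites (TSS), and it took the signal of its highest such summit. In each replicate a gene took the value of that replicate's highest summit in the same window, which need not be at the position of the pooled summit. Read depth is unknown, and with 1 group there is no contrast to test across samples. The counts below therefore stand beside the same counts over all protein-coding genes.

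The nuclear pore is a channel through the nuclear envelope built from many copies of each of its proteins, the nucleoporins. The Y complex and the inner ring form its scaffold, membrane proteins anchor it, and nucleoporins rich in phenylalanine and glycine fill its central channel. Filaments on the cytoplasmic face and a basket on the nuclear face receive and release cargo. Bulk mRNA leaves through the heterodimer of sbr (the fly NXF1) and Nxt1, while many proteins leave through the exportin emb (the fly CRM1), whose direction of travel is set by the Ran cycle. In flies several nucleoporins, among them Mgtor, Nup153, Nup98 and Elys, also contact chromatin away from the pore.

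Of the 34 genes, 31 were bound, or 91.2%, against 5941 of 13944 protein-coding genes, or 42.6%. All 10 Y complex genes, both membrane genes, all 3 central channel genes, all 3 basket genes, all 3 export receptor genes and all 3 Ran cycle genes were bound. The inner ring had 4 of 6 bound and the cytoplasmic face 3 of 4. The genes without an IDR summit were Nup154 and Nup35 of the inner ring and mbo of the cytoplasmic face. Each of these had a weaker summit in the pooled list, so all 34 genes had a pooled summit within 500 bp, against 55.1% of protein-coding genes.

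Sequences are shown so that the bound stretches of these genes can be compared. They are those of the 6 highest summits outside exons on X, 2L, 3L and 3R, so genes of higher signal elsewhere, Rae1, Gp210 and Nup214 among them, are not shown. Each is the exon-free part of the 50 bp on either side of the summit, from the dm6 assembly as released by RefSeq, written 5′ to 3′ on the gene's strand, which is the plus strand for all 6. Capitals mark ATCGAT, the inner letters of the sequence bound by the promoter factor DREF, a choice made after the data were seen. The stretches are those of Nup37 (chr3R:25247515-25247588), RanGAP (chr2L:19444872-19444951), Nup133 (chr3R:22690452-22690552), Nup160 (chr2L:11123652-11123752), Nup205 (chrX:19852099-19852199) and Nup358 (chr3R:25249250-25249347).
Nup37: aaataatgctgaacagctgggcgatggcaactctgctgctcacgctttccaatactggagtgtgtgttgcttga
RanGAP: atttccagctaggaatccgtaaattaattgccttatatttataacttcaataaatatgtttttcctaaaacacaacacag
Nup133: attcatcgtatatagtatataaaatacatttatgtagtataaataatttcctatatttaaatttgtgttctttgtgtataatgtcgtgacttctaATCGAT
Nup160: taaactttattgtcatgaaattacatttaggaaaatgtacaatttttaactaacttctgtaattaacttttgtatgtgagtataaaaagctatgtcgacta
Nup205: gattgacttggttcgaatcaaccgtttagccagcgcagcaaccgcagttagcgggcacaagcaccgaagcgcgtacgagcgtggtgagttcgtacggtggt
Nup358: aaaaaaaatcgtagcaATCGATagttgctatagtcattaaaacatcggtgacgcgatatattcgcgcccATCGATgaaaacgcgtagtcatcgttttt

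The Y complex genes had 10 bound promoters whose pooled signals ran from 387 to 2566. Nup37, a small subunit, was highest, at 2566 in the pooled list and at 705, 573 and 1267 in replicates 1, 2 and 3, or percentiles 98.3, 98.9 and 99.2. Its summit lay 120 bp upstream of the Nup37 TSS but nearer to the TSS of RpS27, a ribosomal protein gene read from the other strand, and a second summit of 1285 lay 81 bp downstream in the same interval. The peak (chr3R:25247237-25247951) thus covers both promoters and cannot be given to Nup37 alone.

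Nup98-96 encodes a precursor that is cut into the channel nucleoporin Nup98 and the Y complex subunit Nup96. Its summit lay 24 bp inside the gene (chr3R:23781364-23781863) with a pooled signal of 1868 and replicate signals of 566, 419.7 and 869.6. Nup133, a subunit of the Y complex stem, had 1737 in the pooled list and 645, 394 and 698 in the replicates (chr3R:22690268-22690693). The percentiles of both genes stayed between 97.3 and 98.3 in every replicate, so the replicates did not separate them.

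Nup160, which forms an arm of the Y, had a pooled signal of 957 with 305, 206 and 439 in the replicates, at percentiles 91.6, 90.9 and 94.1 (chr2L:11123541-11123851). Sec13, shared with the COPII coat of secretory vesicles, had 929.8 at a summit exactly on the outer of its 2 start sites. A higher summit of 1049.6 lay 583 bp downstream of the inner start site, in an intron and outside the window. Elys, which starts pore assembly on chromatin after mitosis, had 824 from a summit 181 bp upstream that it shares with the exportin gene Ranbp21 on the other strand. Elys is therefore not a separate site from the Ranbp21 promoter.

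The remaining Y complex genes were lower. Nup75, the fly Nup85, had a pooled signal of 746, Nup43 had 556, Nup44A, the fly Seh1, had 466 and Nup107 had 387. Nup43 ranged from percentile 73.4 in replicate 1 to 91.3 in replicate 3, whereas Nup44A stayed between 80.9 and 82.5. Nup75 went the other way from Nup43, with 92.2 and 93.0 in replicates 1 and 2 and 78.8 in replicate 3.

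**Figure D1:**
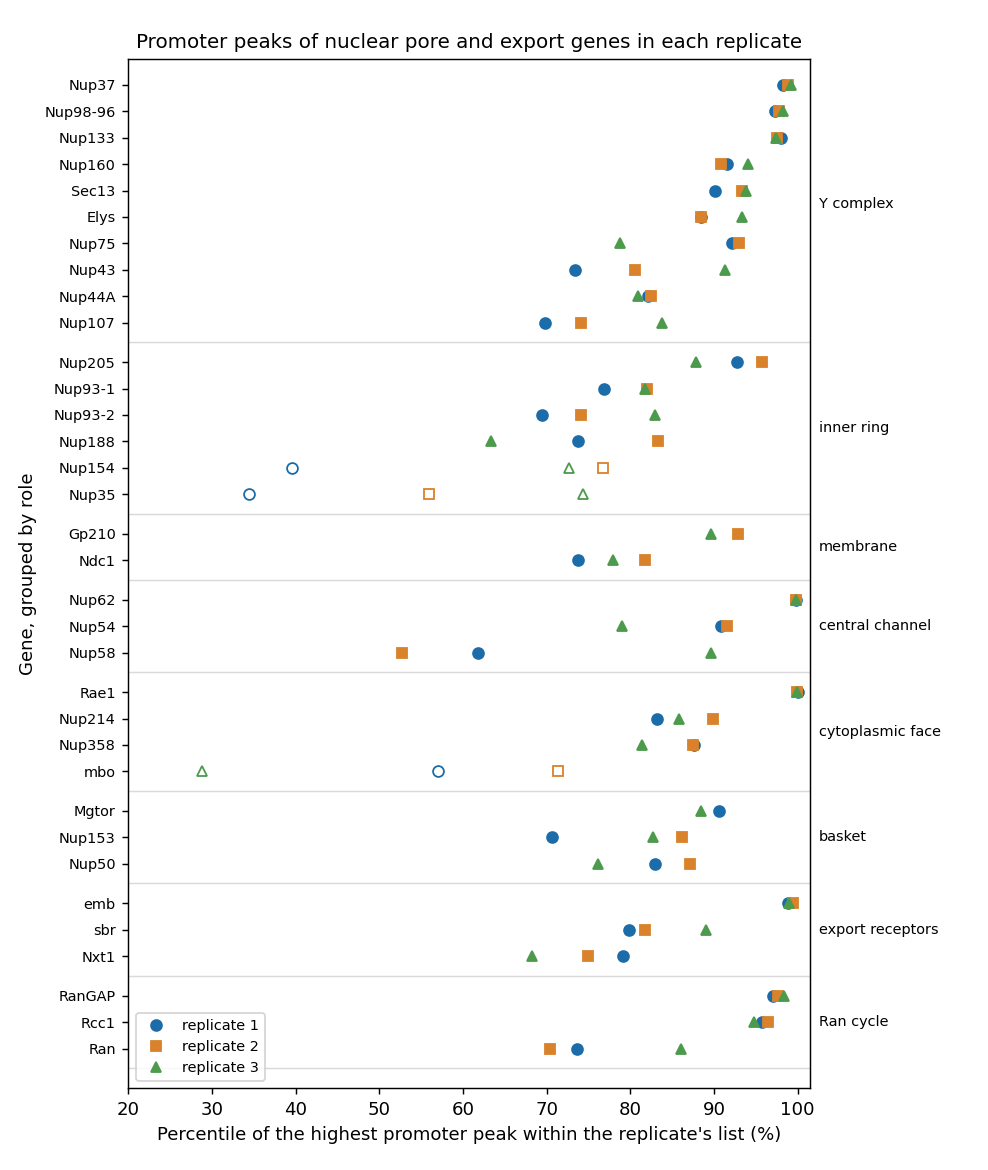
Percentile of the highest peak within 500 bp of a TSS in the list of each of the 3 replicates, for the 34 genes grouped by role. Filled markers are genes with an IDR summit and open markers the 3 without, and a missing marker means no summit in that replicate's list within the window. Rae1, Nup62, emb, Nup37, Nup98-96, Nup133 and RanGAP keep their replicates together near the top of the lists, while mbo, Nup154, Nup35 and Nup58 spread most.

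The inner ring held both weak and missing promoters. Nup205, a large scaffold protein, was the highest of the group with a pooled signal of 904 and percentiles of 92.7, 95.7 and 87.8. The paralogs Nup93-1 and Nup93-2 had 419 and 396, and Nup188, related in structure to Nup205, had 321. The Nup93-1 summit lay 351 bp upstream and nearest to the TSS of Clic, and the Nup188 summit lay nearest to that of CG13148.

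Nup154 had no IDR summit in its window. Its highest pooled summit there had a signal of 222 at 446 bp upstream. The highest summits of replicates 1, 2 and 3 in the window were at percentiles 39.6, 76.7 and 72.7 and lay 32, 420 and 321 bp upstream. An IDR summit of 607 lay just beyond the window, 693 bp upstream and nearest to RpL9, a ribosomal protein gene on the other strand. Nup35, a membrane-binding ring protein, had a pooled summit of 216 at 156 bp upstream, and its nearest IDR summit was 2267 bp downstream. The highest Nup35 summits of the replicates were at percentiles 34.4, 55.9 and 74.3 and lay 49, 53 and 71 bp upstream. Both promoters were therefore lowest in replicate 1.

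Of the membrane proteins, Gp210 had a pooled signal of 711 and Ndc1 409.7. The Gp210 summit, 235 bp upstream and nearest to the TSS of CG7791, had signals of 238 and 298 in replicates 2 and 3 and no counterpart within 500 bp in replicate 1. The nearest summit of replicate 1 was 3031 bp upstream. Ndc1 was present in all 3 replicates, at percentiles 73.7, 81.8 and 77.9.

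The central channel genes spanned the widest range of any role after the cytoplasmic face. Nup62, which builds the channel together with Nup54 and Nup58, had a pooled signal of 21874 and ranked 50 of the 30000 pooled peaks. In the replicates its signals were 7105, 5921 and 8780.3, with ranks 53, 54 and 48, so its place in the list hardly moved. The peak (chr2R:16343756-16345104) had its summit 21 bp upstream of the inner of the 2 Nup62 start sites. The summit was thus inside the gene, in an exon outside coding sequence, and CG7997 starts within 1000 bp on the other strand.

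The partners of Nup62 were far lower. Nup54 had a pooled signal of 682 and Nup58 had 423. The Nup58 summit lay 365 bp upstream, nearest to Vha13, a subunit gene of the vacuolar ATPase. The highest replicate signals in the window were 79.6, 42.5 and 299.6, at percentiles 61.8, 52.7 and 89.7 and at 304, 53 and 342 bp upstream. The promoter thus stood higher in replicate 3 than in replicates 1 and 2. Replicate 2 had its highest summit elsewhere in the promoter, but a summit of 34.2 (percentile 44.0) also lay 398 bp upstream.

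Rae1, a mRNA export factor that binds Nup98 and docks export complexes on the cytoplasmic face, had the highest signal of all 34 genes. Its pooled signal was 38163, at rank 21 of 30000. In replicates 1, 2 and 3 the signals were 14971, 11119 and 12109.9, at ranks 13, 18 and 30. The peak (chr2R:21659339-21660470) had its summit 22 bp upstream of the only annotated Rae1 TSS, with no other protein-coding TSS within 1000 bp. Rae1 is thus the strongest of these sites and also among the few that lie at a promoter with no near neighbour.

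On the same face, Nup214 had a pooled signal of 620.4 and Nup358, the fly RanBP2, had 597. Nup358 starts 1477 bp from the Nup37 TSS, the nearest pair of genes in the set. Their highest summits are separate, though that of Nup37 is nearer to the TSS of RpS27. The mbo gene, the fly Nup88, which anchors Nup214 and the exportin at the pore, was not bound. Its pooled summit of 181 lay 168 bp upstream, and its nearest IDR summit was 12608 bp upstream. The highest mbo summits of the replicates were at percentiles 57.0, 71.4 and 28.8 and lay 168, 108 and 332 bp upstream.

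The basket gene Mgtor, the fly Tpr, depends on where the window ends. Within 500 bp its pooled signal was 1356 at a summit 263 bp downstream, in a coding exon. In the same window replicate 1 had a summit of 285 at 286 bp downstream, replicate 3 had one of 276 at 104 bp upstream, and replicate 2 had none. In the same peak (chr2R:11852189-11853691) a far higher summit of 13553, at rank 72 of the pooled list, lay 555 bp downstream in an intron. The replicates placed that higher summit 555, 564 and 548 bp downstream with signals of 4969, 4023 and 4582, at ranks 69, 71 and 76.

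The intronic summit was thus steady across replicates, and counting it would make Mgtor the third highest of the 34 genes after Rae1 and Nup62. No other protein-coding TSS lies within 1000 bp of the Mgtor TSS. The other basket genes had pooled signals of 480.0 (Nup153) and 459 (Nup50). The Nup153 summit lay 408 bp upstream, in an intron and nearest to CG9784, and was the farthest from a TSS of the 31.

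Among the export receptors, emb was highest. Its pooled signal was 2898 and its replicate signals were 896, 850.4 and 1111, at percentiles 98.9, 99.4 and 99.0 (chr2L:8402916-8403897). The main summit lay 117 bp upstream, a second of 513 lay 89 bp downstream, and fy starts on the other strand nearby. The mRNA export receptor gene sbr was lower, with a pooled signal of 572 and replicate signals of 158, 124 and 288, at percentiles 79.8, 81.8 and 89.1 (chrX:10847065-10847263). Its partner Nxt1 had 335, at percentiles 79.1, 75.0 and 68.2.

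Every sbr percentile was below every emb percentile. The sbr and Nxt1 percentiles lay apart in replicate 3 by more than in replicate 1, where they were nearly equal.

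In the Ran cycle, RanGAP, which triggers GTP hydrolysis by Ran in the cytoplasm, had a pooled signal of 1807 and replicate signals of 533, 397 and 899.6, at percentiles 97.0, 97.6 and 98.4 (chr2L:19444661-19445158). That summit lay in an intron, 126 bp upstream of the inner of the gene's 2 start sites, and Hs2st and CG10237 start nearby on the other strand. The outer RanGAP start site had no IDR summit in its window, only a pooled summit of 109 lying 95 bp downstream (percentile 43.0). Rcc1, the exchange factor that loads Ran with GTP on chromatin, had 1238 in the pooled list and 439.9, 337 and 476 in the replicates, at percentiles 95.7, 96.5 and 94.8 (chr3L:5932487-5932941). The Ran gene itself had 402 at a summit 55 bp downstream, and a second IDR summit of 325 lay 414 bp upstream of another of its start sites. The highest percentiles in the Ran windows were 73.6, 70.4 and 86.0, taken at the second summit in replicates 1 and 2 and at the first in replicate 3. Both regulators of Ran therefore stood above Ran in every replicate.

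Over the 31 bound genes the median of the signal lay below that of all bound genes, while more of them passed the highest thresholds. The median pooled signal was 682 (quartiles 441 and 1297), against 745 (quartiles 480.4 and 1148) over the 5941 bound protein-coding genes. Above 500 there were 20 of the 31, or 64.5%, against 72.9%, and above 1000 there were 9, or 29%, against 32.1%. Above 2000 there were 4 (Rae1, Nup62, emb and Nup37), or 12.9%, against 8.89%, and above 10000 there were 2 (Rae1 and Nup62), or 6.45%, against 2.09%. The higher shares at the top thus rest on 4 and 2 genes. The order of the medians reversed when the nearest TSS had to be the gene's own, with 793 for these genes and 677 for all. The lowest signal in the IDR list is 263, not far below the 321 of Nup188.

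**Figure D2:**
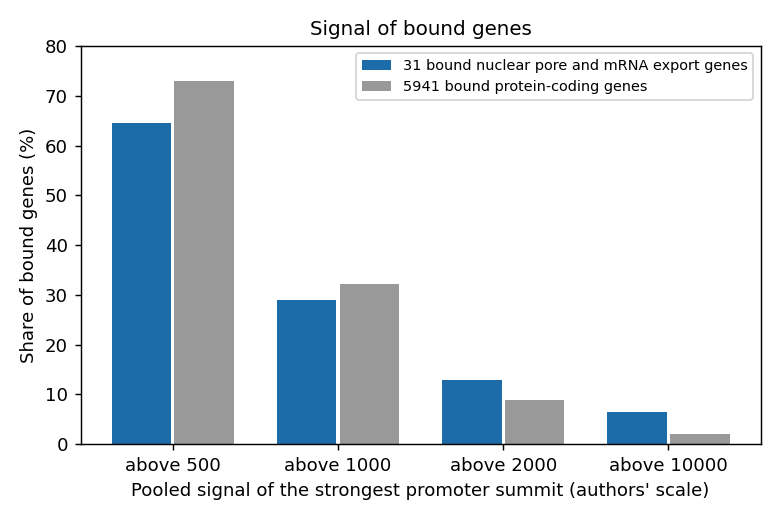
Share of the 31 bound nuclear pore and mRNA export genes (blue) and of the 5941 bound protein-coding genes (grey) whose strongest promoter summit passed a pooled signal of 500, 1000, 2000 or 10000 on the authors' scale. The blue bars stand at 64.5%, 29%, 12.9% and 6.45%, the rightmost pair from 4 and 2 genes.

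The replicates were compared over equal lists, the 9194 strongest peaks of each. Replicates 1, 2 and 3 placed 29, 31 and 31 of the 34 genes there, or 85.3%, 91.2% and 91.2% (89.2% ± 3.4, SD, n = 3). The same shares of protein-coding genes were 41.9%, 43.3% and 41% (42% ± 1.18, SD, n = 3). All 3 replicates held 26 of the genes, a further 5 were in 2 replicates and 3 were in 1, against 35.9% of protein-coding genes in all 3.

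The order of the genes was most alike in replicates 1 and 2. Over the 32 genes with a summit in every replicate, Spearman's rho of the percentiles was 0.957 for replicates 1 and 2, 0.718 for replicates 1 and 3, and 0.688 for replicates 2 and 3, given as a description across genes that share their libraries. The SD of a gene's percentile over replicates had a median of 4.01 and ran from 0.0107 to 21.7. It was above 10 for mbo, Nup154, Nup35 and Nup58, all with weak peaks, and below 2 for 10 genes.

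Summits lay close to the start sites. The median position of the strongest summit was 65 bp upstream for the 31 genes (-65, quartiles -118 and -30), against 109 bp upstream for all bound genes (-109, quartiles -191 and -44). Within 50 bp lay 12 summits, or 38.7%, against 23.3%, and within 100 bp 18, or 58.1%, against 44.1%. From the summits of each replicate the medians were -53, -78 and -73 bp for these genes (-68 ± 13.2, SD, n = 3) and -101, -98 and -111 bp for all genes (-103 ± 6.81, SD, n = 3). These SDs are over replicates of the same genes and do not measure the spread between genes, for which the quartile ranges above overlap. The difference in distance was not tested. Upstream of the TSS lay 26 of the 31, or 83.9%, against 89.8%.

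**Figure D3:**
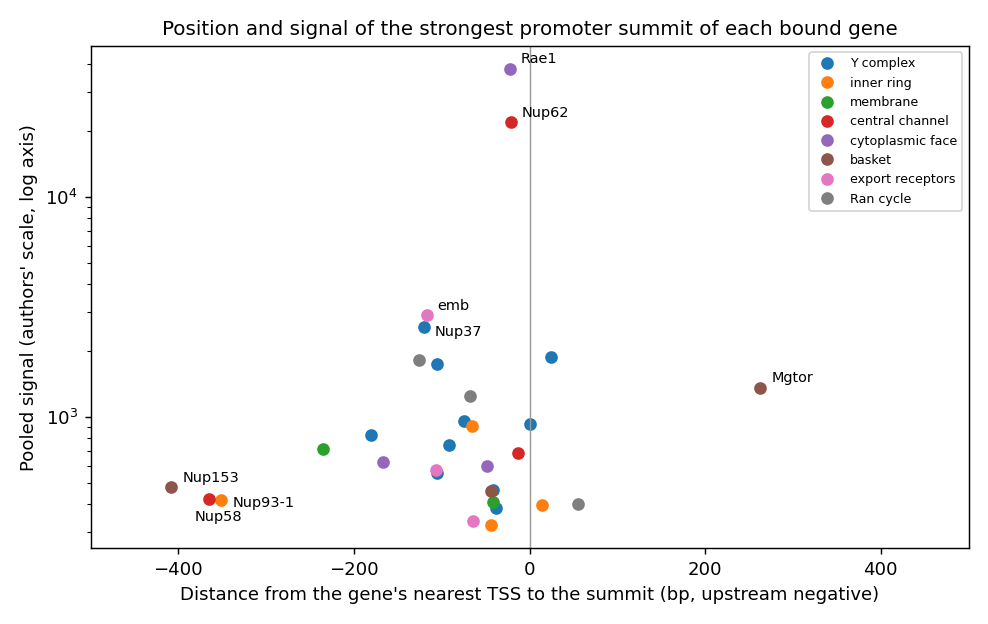
Distance of the strongest promoter summit from the nearest TSS of the gene (bp, upstream negative) against its pooled signal (log axis, authors' scale) for the 31 bound genes, coloured by role. Rae1 and Nup62 stand far above the rest at 22 and 21 bp upstream, most other summits lie between the TSS and 150 bp upstream, and Nup153, Nup58, Nup93-1 and Mgtor lie farthest out.

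By annotation, 16 summits lay between genes, 11 in exons outside coding sequence, 3 in introns (Nup44A, Nup153 and RanGAP) and 1 in a coding exon (Mgtor). Exons outside coding sequence thus held 35.5% of these summits against 18.7% over all bound genes, and the space between genes 51.6% against 68.9%. Exons and introns of any gene were counted. The exon summits of Elys, emb, Nup75, Nup54 and Nup50, and the intron summit of Nup153, lay upstream of those genes. The summit was nearest to the gene's own TSS for 22 of 31, or 71%, against 71.6%. For Elys, Gp210, Nup153, Nup188, Nup50, Nup58, Nup75, Nup37 and Nup93-1 it was nearer to another gene. More than 1 IDR summit was found at 8 genes, or 25.8%, against 21%.

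The start sites of these genes are crowded. Another protein-coding gene starts within 1000 bp of 27 of the 34, or 79.4%, against 42.8% of all protein-coding genes and 65.9% of bound ones. It lies on the other strand for 26, or 76.5%, against 36.7% of all and 62.6% of bound genes. A peak between 2 such starts counts for both genes. Among genes with a near neighbour, 25 of the 27 were bound against 65.7% of protein-coding genes, and among genes without one, 6 of 7 were bound against 25.4%. The 6 bound genes with no near neighbour were Rae1, Mgtor, Rcc1, Nup358, Ndc1 and Nxt1, and the unbound one was mbo. The share of bound genes was thus above its background in both kinds of promoter, a difference that was not tested.

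**Figure D4:**
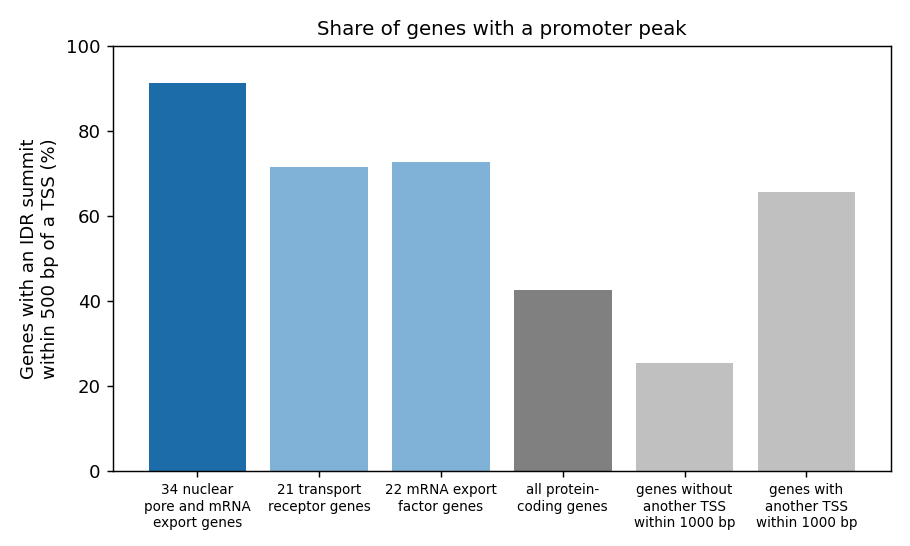
Share of genes whose promoter window of 500 bp held an IDR summit: the 34 nuclear pore and mRNA export genes (91.2%), 21 other nuclear transport receptor genes (71.4%), 22 other mRNA export factor genes (72.7%), all protein-coding genes (42.6%), and protein-coding genes without (25.4%) or with (65.7%) another protein-coding TSS within 1000 bp. The 34 genes stand highest.

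Genes of the same pathways outside the set were counted in the same way. Of 21 other nuclear transport receptor and cofactor genes, 15 were bound, or 71.4%, with a median pooled signal of 561. The highest were Kap-alpha3, an importin alpha (1998), Tnpo-SR, which imports splicing factors rich in serine and arginine (1942), msk, the fly importin 7 (1619), and Tnpo, a transportin (1602). Of 22 other genes listed as mRNA export factors, 16 were bound, or 72.7%, with a median of 715. The list holds genes of the THO, TREX-2, cap-binding and NXF groups and also barc, Phax, Gle1, Dbp80 and ZC3H3. The highest was Ars2, which links the cap-binding complex to RNA processing, with 14713 and percentiles of 99.8, 99.7 and 99.8. It was followed by barc (1495), Nxf3, which exports piRNA precursors (1344), and Cbp20, the small subunit of the cap-binding complex (1082). The differences between the 3 lists were not tested.

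Short sequences known from fly promoters were searched on both strands within 50 bp of the 31 summits. The M1BP sequence GGTCACACT was found at 1 gene, Nup93-2, against 4.21% of bound genes, and the DREF sequence TATCGATA at 2, Nup188 and Nup50, against 8.06%. Core promoter motif 6, GGTATTTT, was found at 1, Nup93-1, against 3.92%. The ZIPIC sequence CAGGGCTG (2% of bound genes), the GAF sequence GAGAGAG (0.505%) and the Zelda sequence CAGGTAG (0.252%) were at none. ACACACTG and ACACTGGC were the 8-mers of highest count at the 100 strongest IDR summits, at 18 each. They share ACACTG and were also at none of the 31, against 0.825% and 1.82% of bound genes.

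The matches at Nup93-2 and Nup93-1 are shown in their surroundings, with the motif in capitals, on the gene's strand (minus for Nup93-2, plus for Nup93-1). They lie at chr3R:14898322-14898350 and chrX:13822493-13822520.
Nup93-2: gccaacatctGGTCACACTgatcttgccg
Nup93-1: cgtaataccaAAAATACCttatacctac

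The Nup93-2 match is centred 36 bp inside the gene, and the Nup93-1 match, which reads as motif 6 on the other strand, 319 bp upstream of it. Within 50 bp 4 of the 31 promoters thus hold one of these sequences, and neither Rae1 nor Nup62 holds one within 50 bp. The inner DREF letters ATCGAT, added after the data were seen, were within 50 bp of the summit at 8 genes (Ndc1, Nup133, Nup188, Nup358, Nup50, Nup93-2, Rae1 and emb), against 16.8% of bound genes and 10.2% of IDR summits. Nup358 holds them once on each side of its summit, as the printed stretch shows. Within 100 bp the M1BP sequence was at 5 genes (Ndc1, Nup62, Nup93-2, Ran and Rcc1), against 8.85%, DREF at 4 (13.6%), ZIPIC at 3 (3.8%) and motif 6 at 2 (6.43%). At least 1 of the sequences was there at 13 of the 31. The share of all bound genes with at least 1 of them was not computed, so the counts of 4 and 13 have no background. A match says only that the letters are there.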

How the data were processed

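ChIP-seq of CG14710-GFP was read from peak lists in narrowPeak format, 1 for each of the 3 replicates, 1 pooled and 1 thresholded on IDR. Per the file headers and the text files deposited with them, the lists are on dm6, each replicate was set against a control, and the IDR list derives from the 3 replicates. No peak caller, setting or IDR cutoff is named in the sources used here. Peak signal was deposited by the authors on an unstated scale, and the summit was deposited as an offset from the start of the interval. Interval starts were raised by 1 to count from 1. Summits can share an interval, as 516 of the IDR peaks do.

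Genes, start sites and sequence came from RefSeq on the same assembly, and every summit was set against all start sites of a gene. The names Mtor and Tpr are synonyms of several genes and were taken as Mgtor, and 2 names in the wider lists matched no gene. The members and lists were chosen with earlier results of these data known. Named with values in every replicate were the 10 genes of highest pooled signal, sbr and emb, and each other gene has its pooled signal. Of each wider list the 4 highest were named. No test was run, since there is 1 group. The replicates number 3, and SDs are over them. Assignment of summits was tested on simulated data. Alternatives changed the window, peak set, assignment rule, neighbours and replicates. Python 3.11.15, numpy 2.4.6, pandas 2.3.3, scipy 1.17.1 and matplotlib 3.10.9 were used.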

Additional observations from a re-analysis of the deposited data

How the results depend on the processing

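Among the 50% of IDR peaks with the higher signal, 20 of the 34 genes kept a summit (29% of protein-coding genes), as did 9 of the 21 transport receptor and 10 of the 22 export factor genes. Without another TSS within 1000 bp, the counts were 6 of 7, 4 of 10 and 4 of 7, against 25.4% of such protein-coding genes. Windows of 250 and 1000 bp gave 28 and 32 bound genes (37.3% and 46.1% of protein-coding genes). Any overlap of the interval gave 32 (44.2%) and the pooled list 34 (55.1%). The rule that the nearest TSS be the gene's own gave the fewest of these, 24 (32.6%). Leaving out a replicate left 27 to 29 of the 31 bound genes (36% to 38.4% of protein-coding genes). It left 12 to 14 transport receptor genes and 12 to 13 export factor genes. The IDR list was not remade for this, so calls could be lost but not gained. Nup58 lost its call whichever replicate was left out, Nup188 and Nxt1 without replicate 1 or 2, and Gp210 without replicate 2 or 3. Replicate 1, kept in both of the latter cases, has no Gp210 summit in the window. At each of these genes, a replicate still in use had no summit in the window among its 9194 strongest peaks. The IDR list itself was made from all 3.

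The median pooled signal of 682 became 697 with 250 bp, 651 with 1000 bp, 620.4 with the summit nearest the TSS and 793 with own start sites only, where all genes had 677 and the order of the medians thus reversed. Over the genes still bound without a replicate it was 682 to 746, against 781 to 816 for all genes. The pooled signals used there still came from all 3 replicates. With 50% as many of the strongest peaks per replicate, 18 genes on average had a summit (28.6% of protein-coding genes). The median distance became -48 bp with the nearest summit. A fixed sequence was within 100 bp at 13 genes, against 4 within 50 bp, with no share of all bound genes computed for either. The cause of these shifts was not tested. Chosen after seeing the data were the inner DREF letters and the genes sharing a synonym (32 of 36 bound, against 42.6% of protein-coding genes). So were the windows for single genes and the replicate omissions for the strongest peaks, distances and percentiles. No paired analysis was possible because there is 1 group. Depth is unknown, so a missing summit is no evidence of absence.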
